A study of Mus musculus with 18 samples.

Results

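This report describes chromatin accessibility around Smarca4 and Actl6a, the 2 mouse genes that were deleted in the conditional knockout cells of the study. Smarca4 encodes BRG1 and Actl6a encodes BAF53A. All peaks of the 18 deposited ATAC-seq peak lists that overlapped a 130 kb window on chromosome 9 holding Smarca4, or a 60 kb window on chromosome 3 holding Actl6a (build mm9), were taken, and overlapping peaks were merged. This gave 74 regions made from 268 peaks, of 377189 regions made from 1651188 peaks in the whole series. The Smarca4 window held 51 regions (149 peaks), numbered S1 to S51 along the chromosome, and the Actl6a window held 23 (119 peaks), numbered A1 to A23.

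ATAC-seq marks open DNA by the insertion of sequencing adapters with a transposase, and a peak is a stretch with many insertions. Mouse embryonic stem (ES) cells were grown in serum-LIF medium on gelatin, and viable cells were sorted before transposition. The Brg1 line (Brg1fl/fl; Actin-CreER) and the Baf53a line (Baf53afl/-; Actin-CreER) received 0.8 µM tamoxifen (Tax in the sample titles) or ethanol (EtOH) over 24 h, followed by 48 h without either, with 2 libraries per group. Wild-type cells were exposed to ICRF-193 at 1 µM, or to DMSO. There were 2 libraries of each at 24 h and 3 of each at 1 h. Both knockout lines carry the Actin-CreER transgene in the EtOH libraries too, and every Baf53a library has 1 null allele by its genotype label, before any tamoxifen. The names of the deposited lists call the same line flfl, which would mean no null allele before tamoxifen. The labels were followed, and the files do not settle which is right. Replicates were passages of a line, so that the spread between them covers passages and libraries, and p-values below measure that spread alone. The labels give neither the exons that the floxed alleles remove nor a measurement of the 2 proteins, so that a peak that stayed in the Tax libraries does not check the deletion.

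BRG1 is the ATPase that drives the BAF complexes, which move and evict nucleosomes. BAF53A is an actin-related subunit of the same complexes and also belongs to the INO80 and TIP60 chromatin complexes. In ES cells a form of the complex called esBAF carries BRG1 and is known to be needed for self-renewal. ICRF-193 is a catalytic inhibitor of topoisomerase II, an enzyme that passes one DNA duplex through another and is known to work with BAF complexes in ES cells.

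The 250 bases before each gene's start, from the RefSeq promoter table on build GRCm38.p6, are shown because both are rich in CG dinucleotides. Capitals mark 2 motifs on either strand, GGGCGG (the GC box bound by Sp factors) and GCATGCGC (the core bound by the factor NRF1). Both sequences are read on the plus strand, at chr9:21615919-21616168 and chr3:32708296-32708545.
Smarca4: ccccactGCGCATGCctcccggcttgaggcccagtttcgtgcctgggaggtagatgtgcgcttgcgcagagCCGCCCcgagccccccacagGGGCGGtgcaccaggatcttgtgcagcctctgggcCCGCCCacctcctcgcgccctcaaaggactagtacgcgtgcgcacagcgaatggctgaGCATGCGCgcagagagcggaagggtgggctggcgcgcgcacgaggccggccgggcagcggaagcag
Actl6a: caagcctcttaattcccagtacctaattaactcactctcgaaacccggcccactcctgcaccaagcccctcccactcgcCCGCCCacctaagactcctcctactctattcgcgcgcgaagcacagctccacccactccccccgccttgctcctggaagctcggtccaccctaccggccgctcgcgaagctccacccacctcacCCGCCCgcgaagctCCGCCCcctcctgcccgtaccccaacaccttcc
The Smarca4 sequence held 25 CG dinucleotides and the Actl6a sequence 19, against a median of 6 over 32851 promoters. Each held 3 GC boxes, a motif with at least 1 match in 32.74% of all promoter windows. The NRF1 core occurred 2 times in the Smarca4 window, at 243 and 66 bases before the start, and 0 times in the Actl6a window, and 2.26% of all promoters held it. The letters CCAAT (in 33.85% of promoters) and TATAAA (in 12.37%) occurred 0 times in both windows. The peaks are on another build (mm9), so that no peak was placed against these promoters. Which genes other than Smarca4 and Actl6a lie near these peaks is not reported here.

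The files hold no read counts, so that sequencing depth is unknown, and the number of peaks per list ran from 46431 (Brg1 Tax replicate 2) to 129880 (DMSO 1 h replicate 3). Column 5 of each list is the authors' score for a peak. It is given here as a percentile, the share of that list's peaks with a lower score, or as a rank from the top after each list was shortened to its 46431 best peaks. The 2 Brg1 Tax lists (84763 and 46431 peaks) were both shorter than the 2 EtOH lists (107473 and 85007), while the Baf53a Tax lists (88729 and 86960) lay between the EtOH lists (110503 and 83918).

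Most regions of both windows were weak and seen once. In the Smarca4 window 2 regions had a peak in all 18 libraries, 2 in 9 to 17, 16 in 2 to 8, and 31 in 1 library. In the Actl6a window the same classes held 2, 3, 6 and 12 regions. Together 5.405% of the 74 regions had a peak in all 18 libraries and 58.1% in 1, against 4.788% and 54.94% of all 377189 regions. The map of the Smarca4 window and the map of the Actl6a window show a few strong columns of peaks and scattered weak ones between them.

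**Figure D1:**
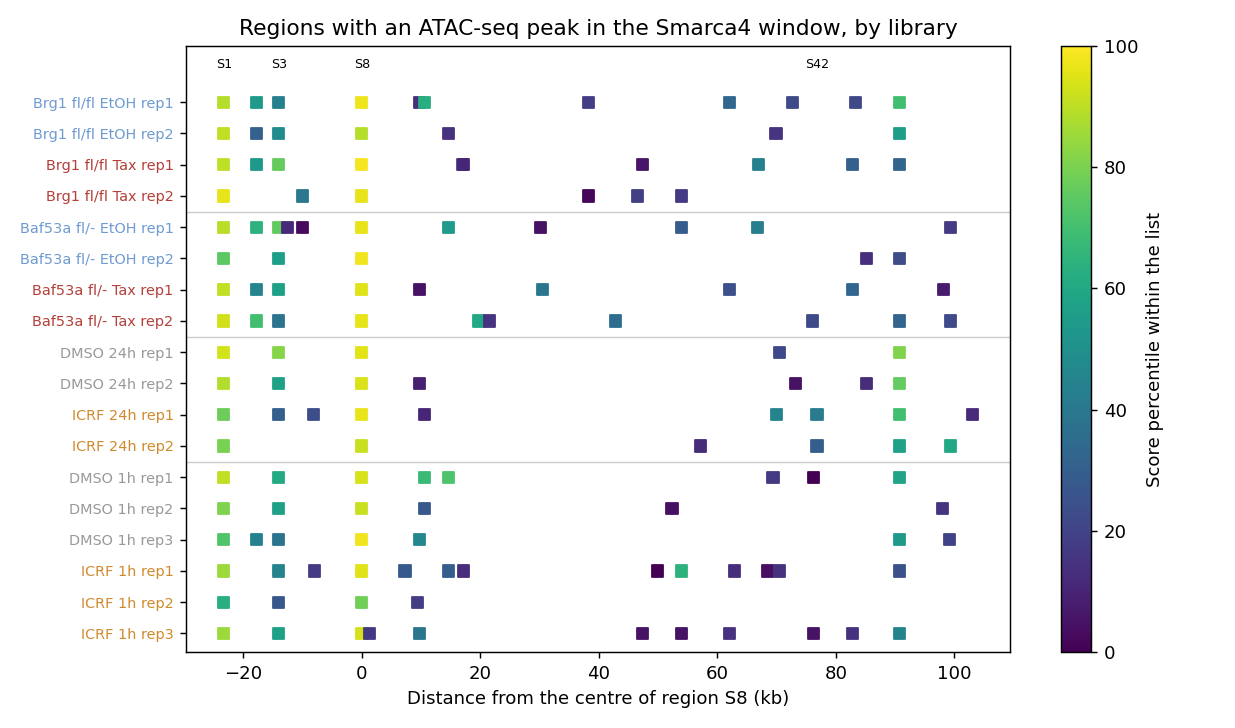
Regions with a peak in the Smarca4 window, by library (rows) and distance from the centre of S8 in kb (x axis), coloured by score percentile within the list (0 to 100). The columns at S8 and at S1, at -23.27 kb, are filled in all 18 libraries, and the other squares beyond S8 are mostly dark and seen in few libraries.

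**Figure D2:**
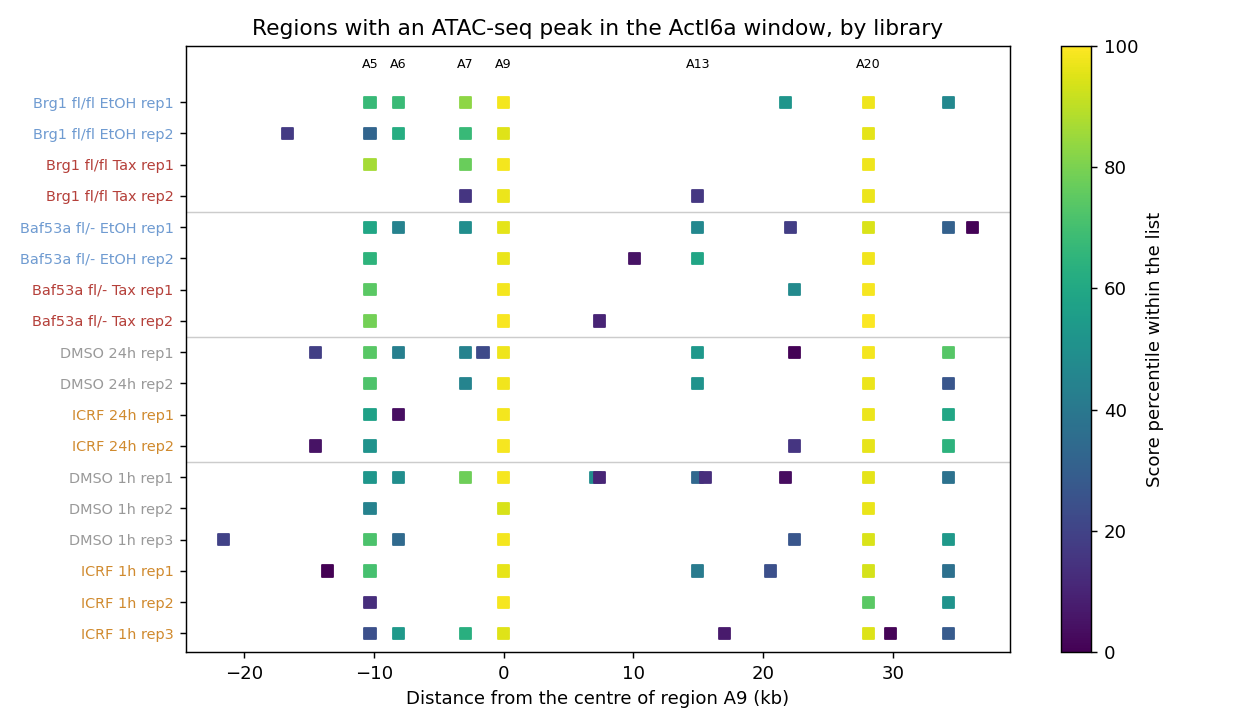
Regions with a peak in the Actl6a window, by library (rows) and distance from the centre of A9 in kb (x axis), coloured by score percentile within the list (0 to 100). A9 and A20 are filled and bright in all 18 libraries, A6 has no square in either Brg1 fl/fl Tax row and A13 none in either Baf53a fl/- Tax row.

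The strongest region of the Smarca4 window was S8, at chr9:21419967-21421212, with percentiles from 78.4 to 98.7 and a median of 95.3 over the 18 libraries. Its peaks covered 498 to 1229 bp. S1, at chr9:21396822-21397811 and centred at -23.27 kb from S8, also had a peak in every library, with percentiles from 62.8 to 96.2. S3, at chr9:21406382-21406850, had a peak in 16 libraries, and the 2 without one were Brg1 Tax replicate 2 and ICRF 24 h replicate 2. For 89.82 kb after S8 there were 37 regions, of which 24 were seen in 1 library and none in more than 5, with a median percentile of 17.8. This run ended at S46 (chr9:21511036-21511740), singled out after its values were seen, which had a peak in 13 libraries with percentiles from 22.7 to 81.1.

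The strongest region of the Actl6a window was A9, at chr3:32607112-32608372, with percentiles from 93.9 to 99.0 and a median of 98.0. A20, at chr3:32635118-32636569 and centred 28.1 kb after A9, had a peak in all 18 libraries with a median percentile of 96.8 and a range of 74.3 to 99.3. A5, at chr3:32597264-32597610, had a peak in 17 libraries, all except Brg1 Tax replicate 2, the shortest list. The 26.74 kb between A9 and A20 held 10 regions, of which 6 were seen in 1 library and none in more than 7, with a median percentile of 24.3. Both windows thus had long stretches with scattered weak peaks beside a strong region.

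In the Brg1 line, the 5 Smarca4 regions with a peak in both EtOH libraries each had a peak in at least 1 Tax library. S1 and S8 had one in both Tax libraries, and S2, S3 and S46 had none in Tax replicate 2, the shortest list. Thus 0 of 5 Smarca4 regions were without a peak in both Tax libraries, and of the 5 such Actl6a regions 1 was lost in this sense, while 23.9% of 56649 regions of the genome were lost. Of 2 Smarca4 and 3 Actl6a regions with a peak in both Tax libraries, 0 were gained, against 4.97% of all. With counts this small, the share of lost regions in either window cannot be told apart from that of the genome. Leaving out a library changed the number of lost Smarca4 regions to 2 (without EtOH replicate 1), 5 (without EtOH replicate 2) or 3 (without Tax replicate 1), and of lost Actl6a regions to 2, 3 and 2, since fewer libraries then had to share a peak or its absence. With all lists of the contrast shortened to 46431 peaks, 1 Smarca4 region was lost, as it was where peaks had to cover 50% of a region.

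S8 stood at the 97.4 and 89.0 percentiles in Brg1 EtOH replicates 1 and 2 and at 98.7 and 96.2 in Tax replicates 1 and 2. In the shortened lists it ranked 2839 and 9371 in EtOH and 1130 and 1789.5 in Tax. Both Tax libraries ranked it above both EtOH libraries in the shortened lists, while the percentiles in the lists as deposited overlapped, and EtOH replicate 2 was the lowest of the 4. In bulk samples such as these, a region open in more cells and a region more open in each cell cannot be told apart. The change in −log2 rank was 1.86 (SE 0.745), which missed the threshold (limma, adjusted p = 0.209 over 13991 regions with a peak in all 18 shortened lists). Leaving out 1 library of the contrast gave 1.00 (without EtOH replicate 2) to 2.72 (without EtOH replicate 1), and the lists as deposited gave 1.25. The median change over all tested regions was 0.27, and 98.31% of regions had a lower signed change than S8, falls included. This share was 91.94% for S1, 77.19% for A9 and 74.46% for A20, and it is not matched for strength. In this comparison 2.44% of regions were called, 36 higher and 305 lower, and 0 of the 4 regions S1, S8, A9 and A20 were among them. Without Tax replicate 2 the calls fell to 67, without EtOH replicate 1 to 98 and without EtOH replicate 2 to 181.

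S1 ranked 11782 and 7982 in Brg1 EtOH and 8482.5 and 1753 in Tax, so that the groups overlapped (change 1.33, adjusted p = 0.324 by limma). The change of S1 was 0.19 without Tax replicate 2, 2.47 without Tax replicate 1 and 0.72 with the lists as deposited. A9 ranked 1794 and 4012 in EtOH and 1600 and 1389 in Tax. A20 ranked 2577.5 and 3522.5 in EtOH and 2199 and 1393 in Tax. In the shortened lists both Tax libraries ranked S8, A9 and A20 higher than both EtOH libraries did, as for 31.1% of all tested regions. In the lists as deposited the groups overlapped for all 3, with A9 at the 98.3 and 95.3 percentiles in EtOH and 98.1 and 97.0 in Tax, and A20 at 97.6 and 95.9 in EtOH and 97.4 and 97.0 in Tax. In the fit on shortened lists the changes of A9 (0.85) and A20 (0.78) had adjusted p = 0.654 and 0.664 by limma. With lists as deposited they were 0.24 and 0.18. The change of A9 was 0.27 without EtOH replicate 2 and 1.43 without EtOH replicate 1, and that of A20 was 0.45 without Tax replicate 2.

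The lost region of the Brg1 contrast was A6, at chr3:32599522-32599753, centred at -8.1 kb from A9. It stood at the 67.6 and 62.0 percentiles in Brg1 EtOH replicates 1 and 2, with peaks of 170 and 143 bp, and had no peak in either Tax library. A stretch of 143 bp was covered in both EtOH libraries and bare in both Tax libraries, the longest of its kind in either window. Of all regions of similar strength in the EtOH libraries (mean percentile 60 to 70), 24.5% were lost in this contrast. A6 was found in 8 libraries in all, also outside this line, and was without a peak in Baf53a EtOH replicate 2, DMSO 24 h replicate 2 and DMSO 1 h replicate 2. By bases, 74 of the 1690 bp of the Smarca4 window covered in both Brg1 EtOH libraries (4.38%) were bare in both Tax libraries, and 254 of 2099 bp of the Actl6a window (12.1%), against 24.7% over the genome. The longest such stretch in the Smarca4 window was 48 bp, in S46. The genome share by bases is not matched for strength. Of all regions at a mean EtOH percentile of 90 to 100, as S8, A9 and A20, 1.72% were lost in this contrast. At 80 to 90, as S1, the share was 7.99%, so that the lower shares by bases do not show that the windows were spared.

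The number of Actl6a regions with a peak was lower in the Tax than in the EtOH libraries of both lines. In the Brg1 line 7 and 6 Actl6a regions had a peak in EtOH replicates 1 and 2 and 4 and 4 in the Tax replicates. In the Baf53a line the numbers were 9 and 5 in EtOH and 4 and 4 in Tax. The groups did not overlap in either line, and both exact permutation tests (two-sided) gave p = 0.333, the smallest that 2 against 2 libraries allow, so that neither difference can pass a threshold of 0.05. With equal numbers of peaks taken from each list, the difference in the Brg1 line shrank from -2.5 to -0.5 regions (exact permutation p = 1) and in the Baf53a line from -3 to -2 (exact permutation p = 0.333). Without Baf53a EtOH replicate 1 the difference in that line was -1.

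In the Smarca4 window EtOH and Tax libraries overlapped in both lines. Its regions with a peak numbered 11 and 7 in Brg1 EtOH and 10 and 6 in Brg1 Tax (difference -1, exact permutation p = 0.667), and 11 and 5 in Baf53a EtOH and 9 and 10 in Baf53a Tax (difference 1.5, exact permutation p = 1). The direction changed to 1 in the Brg1 line without EtOH replicate 1, without Tax replicate 2 and with equal numbers of peaks, and to -1.5 in the Baf53a line without EtOH replicate 2. The plot of regions by list length shows that numbers rose with list length more closely for Actl6a (Spearman correlation 0.712) than for Smarca4 (0.503). In the Smarca4 window the shortest list held 6 regions and the longest 7. Per 10000 peaks of the list the differences in the Brg1 line were 0.312 for Smarca4 and -0.0119 for Actl6a. In the Baf53a line they were 0.287 for Smarca4 and -0.25 for Actl6a.

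**Figure D3:**
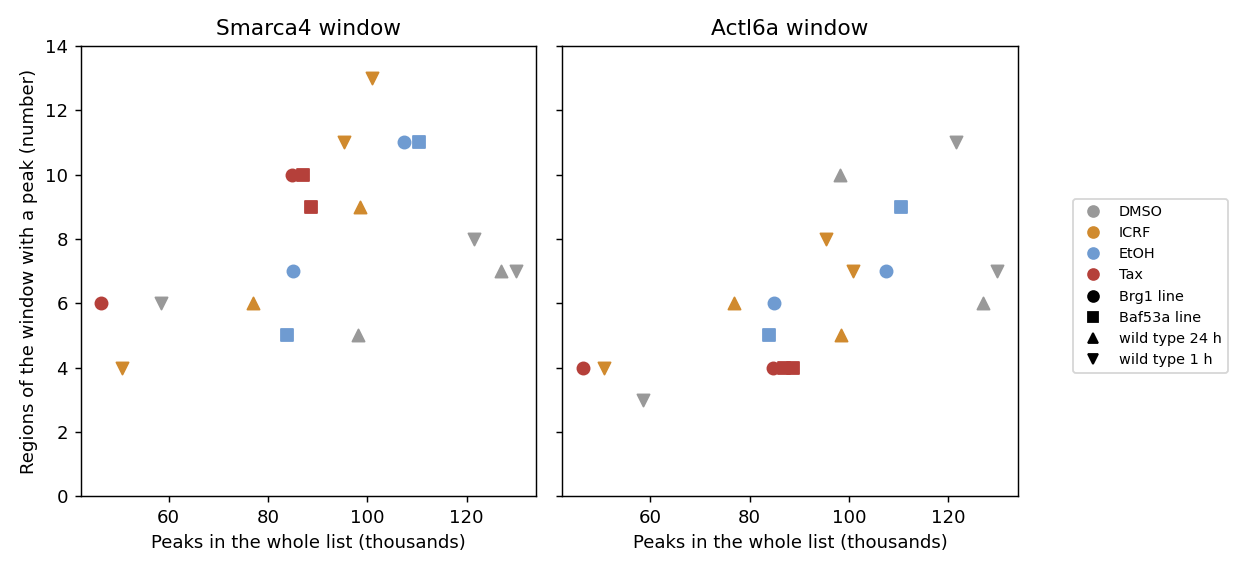
Number of regions with a peak in the Smarca4 window (left) and the Actl6a window (right) against the number of peaks in the whole list (x axis), 1 point per library, coloured by treatment with symbols for line and time. The 4 Tax libraries sit at 4 regions in the Actl6a panel, below the 4 EtOH libraries at 5 to 9, and spread from 6 to 10 in the Smarca4 panel.

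In the Baf53a line, the window of the deleted gene kept its strong regions and lost A13. Of 4 Actl6a regions with a peak in both EtOH libraries 1 was lost, and of 3 Smarca4 regions 0, against 11.2% of 57189 regions of the genome. Gained were 0 of 3 Actl6a and 0 of 4 Smarca4 regions, against 5.49% of all. Here too the counts are too small for these shares to be told apart from those of the genome. Without EtOH replicate 1 the lost regions were 2 in the Actl6a and 1 in the Smarca4 window, and without EtOH replicate 2 they were 6 and 6. Where peaks had to cover 50% of a region, 0 Actl6a regions and 1 Smarca4 region were lost.

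A13, at chr3:32622528-32622889 and 14.97 kb after A9, stood at the 46.5 and 58.9 percentiles in Baf53a EtOH replicates 1 and 2 and had no peak in either Tax library. The 2 EtOH peaks measured 217 and 106 bp and shared 61 bp. Of all regions with a mean percentile of 50 to 60 in these EtOH libraries, 12.6% were lost. A13 had a peak in 7 libraries of the series, with 0 in the Brg1 EtOH libraries and 1 in Brg1 Tax (replicate 2, percentile 16.4). A13 was thus also without a peak in EtOH cells of the other knockout line. By bases, 117 of 1799 bp in the Actl6a window (6.5%) and 93 of 1708 bp in the Smarca4 window (5.44%) went from covered in both EtOH to bare in both Tax libraries, against 13.7% over the genome. That genome share, too, is not matched for strength. Regions at a mean EtOH percentile of 90 to 100, as S8, A9 and A20, were lost in 0.0346% of cases, and those at 80 to 90, as S1, in 0.443%.

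A9 and A20 stood higher in the Baf53a Tax lists than in the EtOH lists. A20 ranked 6113 and 1949.5 in EtOH replicates 1 and 2 and 1101 and 627 in Tax replicates 1 and 2. A9 ranked 4558 and 2772.5 in EtOH and 1450 and 829 in Tax. Both Tax libraries ranked both regions above both EtOH libraries, in the shortened lists and by percentile in the lists as deposited. They also did so for S1 (11665 and 21140 in EtOH, 8541 and 6288 in Tax), and in the shortened lists for 20.8% of all tested regions. The change in −log2 rank was 2.06 (SE 0.781) for A20, above the signed change of 99.46% of regions, and 1.70 (SE 0.822) for A9, above that of 98.39%. For S1 this share was 92.18% and for S8 26.62%. The shares are taken over all tested regions and are not matched for strength. Leaving out 1 library gave 1.23 (without EtOH replicate 1) to 2.88 (without EtOH replicate 2) for A20 and 1.29 to 2.10 for A9. Neither passed the threshold (limma, adjusted p = 0.551 and 0.693), and limma called 0 of 13991 regions (0%) in this comparison, with 982 at an unadjusted p under 0.05. The calls were 1 without EtOH replicate 1, 7 without EtOH replicate 2 and 9 without Tax replicate 1. S8 ranked 4145 and 1848 in EtOH and 4202 and 3154.5 in Tax, and the groups overlapped (change -0.40, adjusted p = 0.970 by limma). Without EtOH replicate 2 the change of S8 was 0.19.

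**Figure D4:**
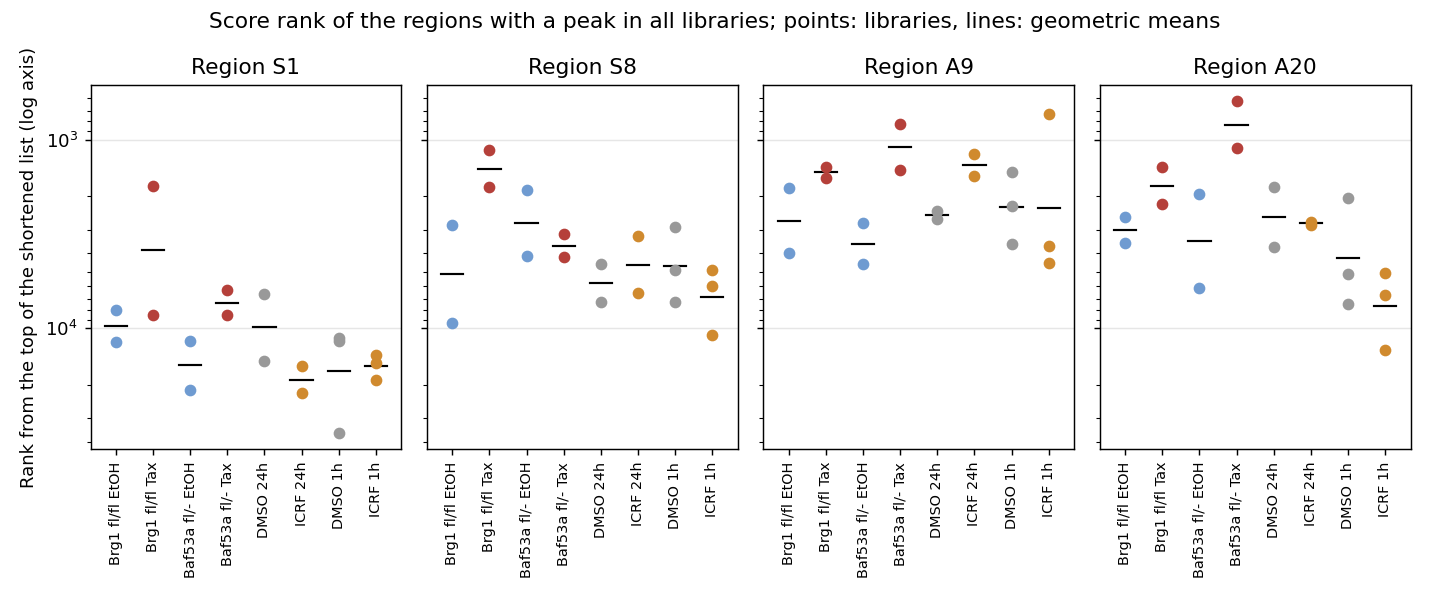
Score rank from the top of the shortened list (log axis, best ranks at the top) of S1, S8, A9 and A20, with 1 point per library and a line at the geometric mean of each group. In the Baf53a fl/- Tax group A9 and A20 sit at 829 to 1450 and 627 to 1101, above their EtOH libraries, while for S8 the Brg1 fl/fl Tax libraries sit above their EtOH libraries.

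The change of S8 was 1.86 in the Brg1 line and -0.40 in the Baf53a line. The difference between these changes was 2.25 (SE 1.05), with an unadjusted p of 0.0381 and adjusted p = 0.718 by limma, so that it did not pass. The difference for A20 was -1.27 (adjusted p = 0.898 by limma). In that test 0.0286% of regions were called, 4 of 13991, with 0 of the 4 regions S1, S8, A9 and A20 among them. In simulated data made for the Brg1 contrast, 200 of 13991 regions were changed. A shift of 2 on the log2 rank scale was called in 4% of changed regions and a shift of 4 in 91%. The real Brg1 contrast gave 341 calls, more than all the changed regions simulated, so that these rates need not hold for S8.

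A difference between the lines that did not depend on tamoxifen was found at A9. The plot of A9 peaks by library shows a gap in the 4 libraries of the Baf53a line that the other 14 libraries do not have. The highest-scoring peak of A9 started at 32607442 to 32607454 in the 4 Baf53a libraries and at 32607112 to 32607203 in the 14 others, which leaves 239 bp between the groups. The stretch chr3:32607328-32607441, 114 bp long, lay in no peak of the Baf53a line and in a peak of each of the other 14 libraries.

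**Figure D5:**
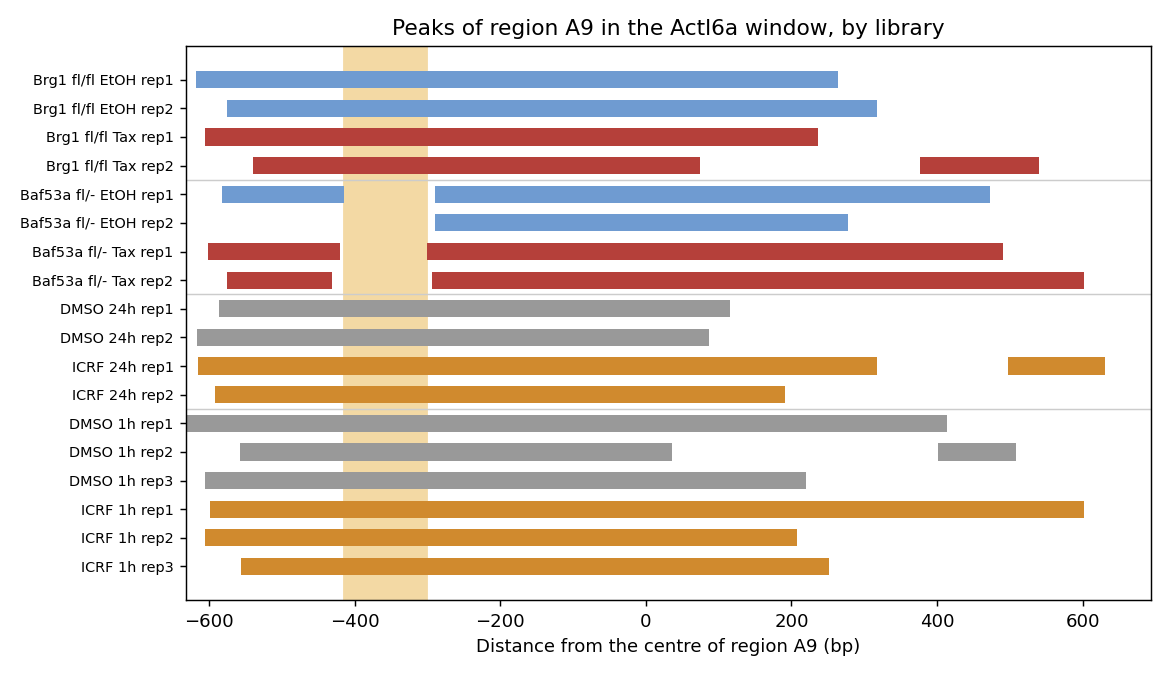
Peaks of region A9 in each library (bars) against distance from the centre of the region in bp, with rows grouped by line and treatment. The shaded band marks the 114 bp that are bare in all 4 Baf53a fl/- libraries, EtOH and Tax, and covered in the 14 others.

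Baf53a EtOH replicate 1 had a peak at 32607161-32607327 (score 9.14) before the gap and one at 32607454-32608214 (score 39.6) after it. Tax replicate 1 had peaks at 32607142-32607322 (score 10.9) and 32607442-32608233 (score 45.7). Tax replicate 2 had peaks at 32607168-32607311 (score 5.67) and 32607449-32608344 (score 45.4). EtOH replicate 2 had the peak after the gap alone, at 32607454-32608020 (score 31.4). In the libraries with both peaks, the one before the gap had the lower score each time.

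Among 18061 regions with a peak in all 18 libraries, 1 (0.00554%), which is A9, had 100 bp or more that were bare in the Baf53a line and covered in all other libraries. For the start of the best peak, A9 itself was the only 1 of 18061 regions (0.00554%) with a gap that large between the Baf53a line and the rest. Both counts describe the same part of A9. For the Brg1 line 7 of 18061 regions (0.0388%) had such a bare stretch, and none of them was S1, S8, A9 or A20. In regions of any detection the Baf53a line had 11 such stretches and the Brg1 line 18. The gap measured 126 bp in the EtOH libraries alone and 119 bp in the Tax libraries alone, 114 to 121 bp with each library of the series left out in turn, and 119 bp in the shortened lists. This comparison was chosen after the peaks were seen and has no test. The genotype of the Baf53a line, which titles and file names give differently, and every other feature of that line cannot be told apart here.

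After 24 h of ICRF-193 in wild-type cells, the Actl6a window lost 2 regions and the Smarca4 window gained 1. Lost were 2 of 6 Actl6a and 0 of 4 Smarca4 regions, against 15.5% of 65604 regions of the genome. Gained were 0 of 4 Actl6a and 1 of 4 Smarca4 regions, against 5.46%. With counts this small, the shares in either window cannot be told apart from those of the genome. The lost regions were A7 and A13. A7, at chr3:32604644-32604985 and centred at -2.93 kb from A9, stood at the 44.0 and 45.2 percentiles in DMSO and had no peak in either ICRF-193 library. A13 stood at 53.5 and 51.3 in DMSO and likewise had none. Of all regions of like strength in DMSO, 27.7% (percentile 40 to 50, as A7) and 19.7% (50 to 60, as A13) were lost. Both A7 and A13 were also without a peak in DMSO 1 h replicates 2 and 3, the latter the longest list. A7 had none in Baf53a EtOH replicate 2 either. The gained region, S42 at chr9:21497297-21497513, stood at 41.2 and 29.4 in the ICRF-193 libraries and was found in no other library of the series. Where peaks had to cover 50% of a region, 0 Actl6a regions and 1 Smarca4 region were lost. Leaving out a library gave 2 to 3 lost Actl6a regions, and for Smarca4 it gave 3 without DMSO replicate 1, 1 without DMSO replicate 2 and 1 without ICRF-193 replicate 1.

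The strong regions were found in all 24 h libraries. S8 ranked 4572 and 7223 in DMSO and 3260 and 6533 in ICRF-193, and A20 ranked 1784 and 3718 in DMSO and 2823 and 2723 in ICRF-193, so that both overlapped. A9 ranked 2396 and 2632 in DMSO and 1551 and 1191 in ICRF-193, higher in both, which 22% of all tested regions also were. S1 ranked 6572 and 14878 in DMSO and 22170 and 15787.5 in ICRF-193, lower in both, as were 18.2% of all regions. The changes were 0.89 for A9 and -0.92 for S1, with adjusted p = 0.776 and 0.684 by limma (S1: -0.33 without DMSO replicate 1 and -1.51 without DMSO replicate 2; A9: 0.53 with lists as deposited), which called 0.05% of regions (7 of 13991) and none of these 4. Those calls fell to 4 without DMSO replicate 1, 0 without DMSO replicate 2, 2 without ICRF-193 replicate 1 and 1 without ICRF-193 replicate 2. The regions with a peak numbered 10 and 6 in DMSO and 5 and 6 in ICRF-193 for Actl6a, and 5 and 7 against 9 and 6 for Smarca4 (exact permutation p = 0.667 for both).

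After 1 h of ICRF-193, 0 of 3 Actl6a and 0 of 3 Smarca4 regions were lost (2.28% over the genome) and 0 of 4 and 0 of 3 gained (0.375%). The 1 h groups rest on the sample titles, since the treatment protocol names 24 h for all wild-type cells. Without DMSO replicate 3, 1 Smarca4 region was lost. S8 ranked 7260.5, 4924.5 and 2902.5 in the DMSO libraries and 4909, 10910 and 5998.5 in ICRF-193. A9 ranked 1480, 3565 and 2247 in DMSO and 3681, 731 and 4504 in ICRF-193. The groups overlapped for both, and for S1 and A20 as well. In ICRF-193 replicate 2, whose list was the second shortest (50611 peaks), S8, A20 and S1 had their lowest percentiles of the series, 78.4, 74.3 and 62.8, while A9 stood at 98.6. Adjusted p ran from 0.930 to 0.9995 for the 4 regions by limma, which called 0 of 13991 regions (0%), with 778 at an unadjusted p under 0.05. In the shortened lists 5.14% of regions ranked higher and 4.72% lower in every ICRF-193 library, and none of the 4 did. The regions with a peak numbered 8, 6 and 7 in DMSO and 13, 4 and 11 in ICRF-193 for Smarca4 (exact permutation p = 0.5), and 11, 3 and 7 against 7, 4 and 8 for Actl6a (p = 1), where the smallest possible p was 0.1. The Actl6a difference of -0.667 turned to 1.33 without DMSO replicate 1 and to 0.5 without ICRF-193 replicate 2.

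Across all 8 groups A9 varied least of the 4 regions found everywhere, with group mean percentiles from 96.3 (SD 0.58, n = 2, Baf53a EtOH) to 98.7 (SD 0.481, n = 2, Baf53a Tax). A20 ran from 87.4 (SD 11.4, n = 3, ICRF-193 1 h) to 99.0 (SD 0.368, n = 2, Baf53a Tax). S8 ran from 89.1 (SD 9.25, n = 3, ICRF-193 1 h) to 97.4 (SD 1.78, n = 2, Brg1 Tax), and S1 from 77.7 (SD 12.9, n = 3, ICRF-193 1 h) to 93.1 (SD 4.41, n = 2, Brg1 Tax). These percentiles come from lists of unequal length, and no change of the 4 regions passed the rank test in any contrast. The remaining regions of the Smarca4 window that are not named by rule had 91 values, with percentiles from 0.05 to 81.1 and a median of 22.5, and those of the Actl6a window had 33, from 0.3 to 73.7 with a median of 22.4.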

How the data were processed

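The 18 deposited files are 1 peak list per ATAC-seq library, called per sample, with positions on mm9 and the authors' score in column 5, whose scale no label or header states. Bowtie 0.12.9, MACS2 and edgeR 3.12.1 are named per the submitters' processing notes, with no role or order. Read shifting and the calling threshold are not stated either. The lists hold no read counts, so that depth is unknown and no counting interval is given.

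Peaks overlapping by 1 bp or more were merged over the 18 lists (Python 3.11.15, pandas 2.3.3, numpy 2.4.6, checked with bedtools 2.31.1). A region was lost where every control and no perturbed library had a peak, and gained in the reverse case. Numbers of regions were compared by exact permutation tests (two-sided, written in Python). Ranks were compared with limma 3.58.1 (R 4.3.3) on −log2 rank over all 18 libraries with 1 term per group, for the 13991 regions with a peak in all 18 shortened lists. Adjusted p-values follow Benjamini and Hochberg, with calls under 0.05. The fit was tested on simulated data.

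The windows, members and lists were chosen with earlier results of these data known. Regions are named by rule: a peak in all 18 libraries, lost or gained in any contrast, or among the 3 with the highest mean percentile of a window. Planned marker genes and other BAF subunit genes were not analysed, since no mm9 annotation was used. The alternatives tried were equal list lengths, a stricter score, a wider merge, coverage of 50% of a region, a logit scale, the libraries of a contrast alone, a replicate block and leaving out each library.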

Additional observations from a re-analysis of the deposited data

How the results depend on the processing

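Direction held for A9, A20 and S1 in both tamoxifen contrasts under each rank alternative and each left-out library, and for S8 in the Brg1 line, none of them past the threshold. For the difference in the number of Smarca4 regions in the Brg1 contrast, equal numbers of peaks gave 1 and regions per 10000 peaks gave 0.312. In the Baf53a contrast required coverage of 50% of a region gave -1. At 1 h, equal numbers gave -0.667 for Smarca4 and 0.667 for Actl6a, dropping the lowest-scoring 25% of each list gave -0.667 for Smarca4, and regions per 10000 peaks gave 0.122 for Actl6a. Lost Smarca4 regions numbered 1 with equal numbers (Brg1) and 1 with 50% coverage (Brg1, Baf53a and 24 h). Lost Actl6a regions numbered 0 with 50% coverage (Baf53a and 24 h). With a replicate block limma called 518 (Brg1), 17 (Baf53a) and 51 (24 h) regions. At 24 h it called 0 with lists as deposited, 21 on the logit scale and 36 with the contrast alone. With lists as deposited S8 changed by -0.0437 at 24 h and S1 by -0.23 at 1 h. The causes were not tested.

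With 1 library left out, the difference in Smarca4 regions ran from -3 to 1 (Brg1), -1.5 to 4.5 (Baf53a), 0 to 3 (24 h) and 0.5 to 5 (1 h), and in Actl6a regions from -3 to -2, -5 to -1, -4.5 to -0.5 and -2.67 to 1.33. Lost Smarca4 regions ran from 0 to 5, 0 to 6, 0 to 3 and 0 to 1, and lost Actl6a regions from 1 to 3, 1 to 6, 2 to 3 and 0 to 0. Regions called by rank ran from 67 to 286 (Brg1), 0 to 9 (Baf53a), 0 to 4 (24 h) and 0 to 0 (1 h). Rank changes ran from -0.98 to 0.19 for S8 (Baf53a), -0.64 to 0.42 for A20 and -0.19 to 0.82 for S8 (24 h), and -0.84 to 0.48 for A9 and -0.47 to 0.37 for S1 (1 h).

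Same-numbered libraries deviated together only weakly (correlation 0.108 in the Brg1 line, 0.134 in the Baf53a line, 0.03 at 24 h and 0.081 to 0.169 at 1 h), and the labels state no pairing. Sign flips within replicate numbers gave p = 0.5 for the Actl6a counts of both lines (exact test), the smallest that 2 pairs allow.

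The lists bound what can be seen: an absent peak is a value below the caller's threshold in that library, not closed chromatin, and weak regions come and go between replicate libraries.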
